A study of Homo sapiens with 2 samples.

Results

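The H3K9-directed Jumonji demethylase genes are 10 genes of the KDM3, KDM4 and KDM7 families, chosen by name and matched by Entrez ID among the 27685 genes in the files. Their RNA levels were measured in PLC/PRF/5, an established line of human hepatocellular carcinoma cells. One sample had received the solvent DMSO and one 6 µM JIB-04, a small molecule that blocks Jumonji enzymes broadly, each for 24 h, and each condition had 1 library of stranded, polyadenylated RNA. For the control, one label reads untreated, whereas the title names DMSO, and the library was taken as the DMSO control. Each family is known for enzymes that remove methyl groups from lysine 9 of histone H3 (H3K9). They belong to the broad Jumonji class at which the compound is directed, but inhibition of each member's enzyme was not measured here. RNA levels say nothing of the activity of the proteins.

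Jumonji demethylases are dioxygenases that use iron, oxygen and 2-oxoglutarate to oxidise a methyl group on lysine, which then leaves as formaldehyde. Methylated H3K9 marks silent chromatin, where HP1 proteins bind it, so these enzymes are known for opening chromatin again. Enzymes of the KDM3 family act on the lower methylation states of H3K9 and those of the KDM4 family on the higher states, KDM4A to KDM4C also on lysine 36, whereas the KDM7 family combines a PHD finger that reads H3K4 methylation with a Jumonji domain. KDM3A and KDM4B are textbook target genes of the hypoxia-inducible factor HIF-1.

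Levels are given as TPM, the share of a gene among all transcripts scaled to a fixed total of 1000000 after correction for length, summed over the transcripts of a gene. TPM is a share, so a change of some genes shifts all others, and a change in each cell cannot be told apart from a change in the mix of cells, such as their cell cycle phase. The log2 ratio compares TPM + 1 under JIB-04 to TPM + 1 in the DMSO control, and genes that differed by 2-fold or more on this scale were called. Of the hepatocyte and hepatoma markers, 10 of 10 had at least 1 TPM in either library. APOA1 (1.34 and 0.99 TPM in the control and under JIB-04), TTR (3.91 and 7.06 TPM) and ALB (9.74 and 4.53 TPM) were weak. None of the 10 was called higher while 2, APOB and KRT18, were called lower. Of 8 markers of other cells 4 reached 1 TPM. The summed TPM of all 8 was 116 in the control and 150 under JIB-04. Of these sums CD68, also a lysosomal gene of many cells, gave 97.0 and 137 TPM. COL1A1 was at 16.03 and 10.64 TPM, above ALB in both libraries. COL3A1 was at 1.22 and 0.77 TPM and RGS5 at 1.20 and 1.14 TPM, so of the 4 only CD68 was higher under JIB-04. PTPRC, the defining marker of blood cells, was listed at 0 in both libraries. The libraries held an estimated 28187793 fragments in the control and 23721989 under JIB-04. With 1 library per condition, treatment and library cannot be told apart, no test across replicates exists, and all intervals below are 95% intervals of counting error on estimated fragments.

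All 10 members reached 1 TPM in at least 1 library, and 4 of them were at least 2-fold higher under JIB-04, namely KDM3A, KDM4B, KDM7A and KDM4C. None was at least 2-fold lower. Among all 14450 described genes, those with at least 1 TPM in either library, 5.99% were called higher and 6.88% lower. The median log2 ratio of the members was 0.41, compared with -0.15 over all described genes, and 8 of 10 members lay above the latter. The counting interval lay above 0 for 7 of 10 members, which was so for 28.2% of the described genes, and below 0 for 1 of 10, which was so for 46.5%. Summed over the members, the level was 177 TPM in the control and 367 TPM under JIB-04, a plain ratio of 2.08. Without KDM3A the sums were 142 and 208 TPM (ratio 1.46), and without KDM3A and KDM4B 127 and 156 TPM (ratio 1.22).

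**Figure D1:**
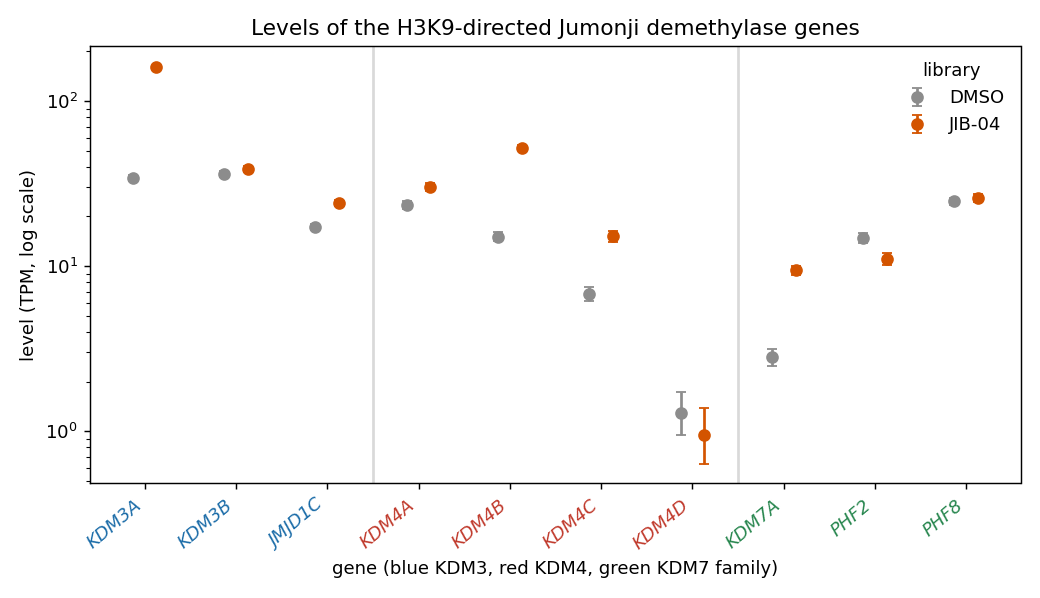
Level of each member in TPM on a log scale, in the DMSO library (gray) and the JIB-04 library (orange), with 95% Poisson intervals of the estimated fragments, which are often smaller than the points. KDM3A moves from 34.2 to 160 TPM and KDM4D stays lowest in both libraries, at 1.29 and 0.95 TPM.

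Among the members the order of the levels differed between the libraries. With DMSO, KDM3B (36.2 TPM, interval 34.9 to 37.5) and KDM3A (34.2 TPM, interval 32.8 to 35.8) stood highest, and their counting intervals overlapped. PHF8 (24.8 TPM) and KDM4A (23.4 TPM) followed, again with overlapping intervals, then JMJD1C (17.3 TPM), KDM4B (15.0 TPM) and PHF2 (14.8 TPM), of which KDM4B and PHF2 overlapped. KDM4C (6.78 TPM), KDM7A (2.80 TPM) and KDM4D (1.29 TPM) were the weakest. With JIB-04, KDM3A came first at 160 TPM (counting interval 156 to 163), then KDM4B at 52.1 TPM and KDM3B at 38.7 TPM. In that library the intervals of neighbours overlapped for PHF8 (25.9 TPM) and JMJD1C (24.2 TPM) and for no other pair of neighbours. The share of KDM3A in the summed TPM of the members was 19.4% in the control and 43.5% under JIB-04, and that of KDM3B 20.5% and 10.5%.

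In the KDM3 family, KDM3A (chr2:86668271-86719839 of hg19, plus strand), whose enzyme removes the mono- and dimethyl marks of H3K9, had the highest ratio of all members. Its level was 34.2 TPM in the control, from 1992 estimated fragments, and 160 TPM under JIB-04, from 7667. The log2 ratio was 2.19 (counting interval 2.12 to 2.26), at percentile 99.2 of the described genes, and the gene moved from percentile 62.5 of their levels in the control to 92.2 under JIB-04. KDM3B (chr5:137688285-137772716), the closest relative of KDM3A, was at 36.2 TPM in the control and 38.7 TPM under JIB-04. Its log2 ratio of 0.09 (counting interval 0.02 to 0.17 from 2935 and 2592 fragments) was near 0, so that of these 2 genes with nearly equal levels in the control, one stood 4.67-fold higher in TPM under JIB-04 and the other 1.07-fold. JMJD1C (chr10:64926981-65281835, minus strand), a KDM3 relative and coactivator of nuclear receptors, was at 17.3 and 24.2 TPM, for a log2 ratio of 0.46 (counting interval 0.37 to 0.55), within 2-fold.

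In the KDM4 family, KDM4B (chr19:4969124-5153608), whose enzyme acts on trimethylated H3K9, was at 15.0 TPM in the control and 52.1 TPM under JIB-04, from 1003 and 2868 fragments. The log2 ratio was 1.73 (counting interval 1.63 to 1.83), at percentile 98.2 of the described genes. KDM4C (chr9:6720863-7175648), an oncogene candidate first found as GASC1, was at 6.78 and 15.1 TPM, from 372 and 672 fragments. Its log2 ratio of 1.05 (counting interval 0.88 to 1.22) was close to the 2-fold line, which the interval spans, and it was 0.77 with a pseudocount of 5 TPM. KDM4A (chr1:44115797-44171189), whose Tudor domains also bind methylated histones, was at 23.4 and 30.3 TPM, for a log2 ratio of 0.36 (counting interval 0.25 to 0.47). KDM4D (chr11:94706845-94732676), a shorter enzyme that lacks the PHD and Tudor domains of the others, was at 1.29 and 0.95 TPM and passed the level of 1 TPM through the DMSO library. With 46 and 28 fragments its log2 ratio of -0.23 had an interval from -0.59 to 0.14, and at this depth neither a lower nor an equal level could be told. The family's summed TPM was 46.5 in the control and 98.4 under JIB-04. KDM4E, a KDM4D-like gene that is no member, was listed at 0 in both libraries.

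In the KDM7 family, one member was higher, one lower within 2-fold, and one nearly level. KDM7A (chr7:139784546-139876741, minus strand), whose enzyme acts on dimethylated H3K9 and H3K27, was at 2.80 TPM in the control and 9.43 TPM under JIB-04, from 306 and 851 fragments. The log2 ratio was 1.46 (counting interval 1.31 to 1.61), at percentile 97.3. Because KDM7A was weak, the pseudocount mattered, and its plain TPM ratio was 3.37 compared with 2.75 on the scale of TPM + 1, while with a pseudocount of 5 TPM its log2 ratio was 0.89 and no longer past 2-fold. PHF2 (chr9:96338909-96441869), which works with the DNA-binding protein ARID5B, was at 14.8 and 11.1 TPM, from 943 and 583 fragments, for a log2 ratio of -0.39 (counting interval -0.53 to -0.25). It was the sole member whose interval lay below 0. PHF8 (chrX:53963113-54071569, minus strand), a demethylase of H3K9 and of H4K20, was at 24.8 and 25.9 TPM, for a log2 ratio of 0.06 (counting interval -0.04 to 0.16). The summed TPM of the family was 42.4 in the control and 46.4 under JIB-04.

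**Figure D2:**
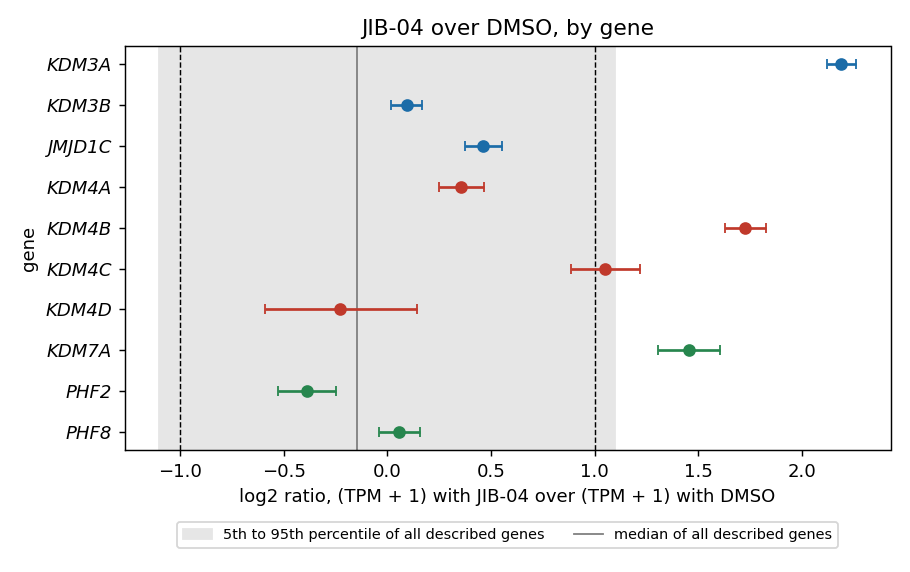
Log2 ratio (JIB-04 over DMSO) of each member along the x axis, with 95% counting intervals, colored by family (blue KDM3, red KDM4, green KDM7). The gray band runs from -1.10 to 1.10, the 5th and 95th percentiles of the 14450 described genes, the gray line is their median of -0.15, and dashed lines mark 2-fold; KDM3A, KDM4B and KDM7A lie to the right of the band.

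Exon by exon, ratios lay above 0 in each counted exon of the 4 called members, although in KDM4C fewer exons passed 2-fold. The level of an exon is its coverage summed over the annotated transcripts and put on the TPM scale, and exons with a level of at least 1 in either library are counted. In KDM4B 23 of 23 exons were at least 2-fold higher, with log2 ratios from 1.19 to 2.41. In KDM3A 26 of 27 were, with a median of 2.19, but exon 2 with 0 and 1 fragment passed the level of 1 through the JIB-04 library alone, and 25 of 26 were so among exons that reached it in the control, a count added after the data were seen. The exception was the first exon, weakly covered with a level of 2.48 in the control and 4.06 under JIB-04 and a log2 ratio of 0.54, whereas its terminal exon stood at 35.0 and 168. In KDM7A 17 of 20 exons were at least 2-fold higher, between 0.28 and 3.13, and the last exon had 212 and 536 fragments, while each other exon had 1 to 19 in the control. In KDM7A exons 1 and 15, of which the latter has the highest ratio, passed through the JIB-04 library alone, and among the exons that reached a level of 1 in the control 15 of 18 were at least 2-fold higher. In KDM4C 11 of 23 were, and all 23 had ratios above 0, of which exon 11 passed through the JIB-04 library alone.

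The members that were not called had exon ratios on both sides of 0, with KDM4D as an exception. KDM3B had 18 of 24 exons above 0, between -0.21 and 0.37, and PHF8 15 of 23, between -0.36 and 0.42. In KDM4A 21 of 22 exons were above 0, and in JMJD1C 22 of 26. PHF2 had 4 of 22 exons above 0, exons 11 to 14, with ratios from 0.22 to 0.42, while exon 1 and exon 3 were lowest at -1.05 and -1.01. The 3 exons of KDM4D all lay below 0, between -0.37 and -0.15.

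**Figure D3:**
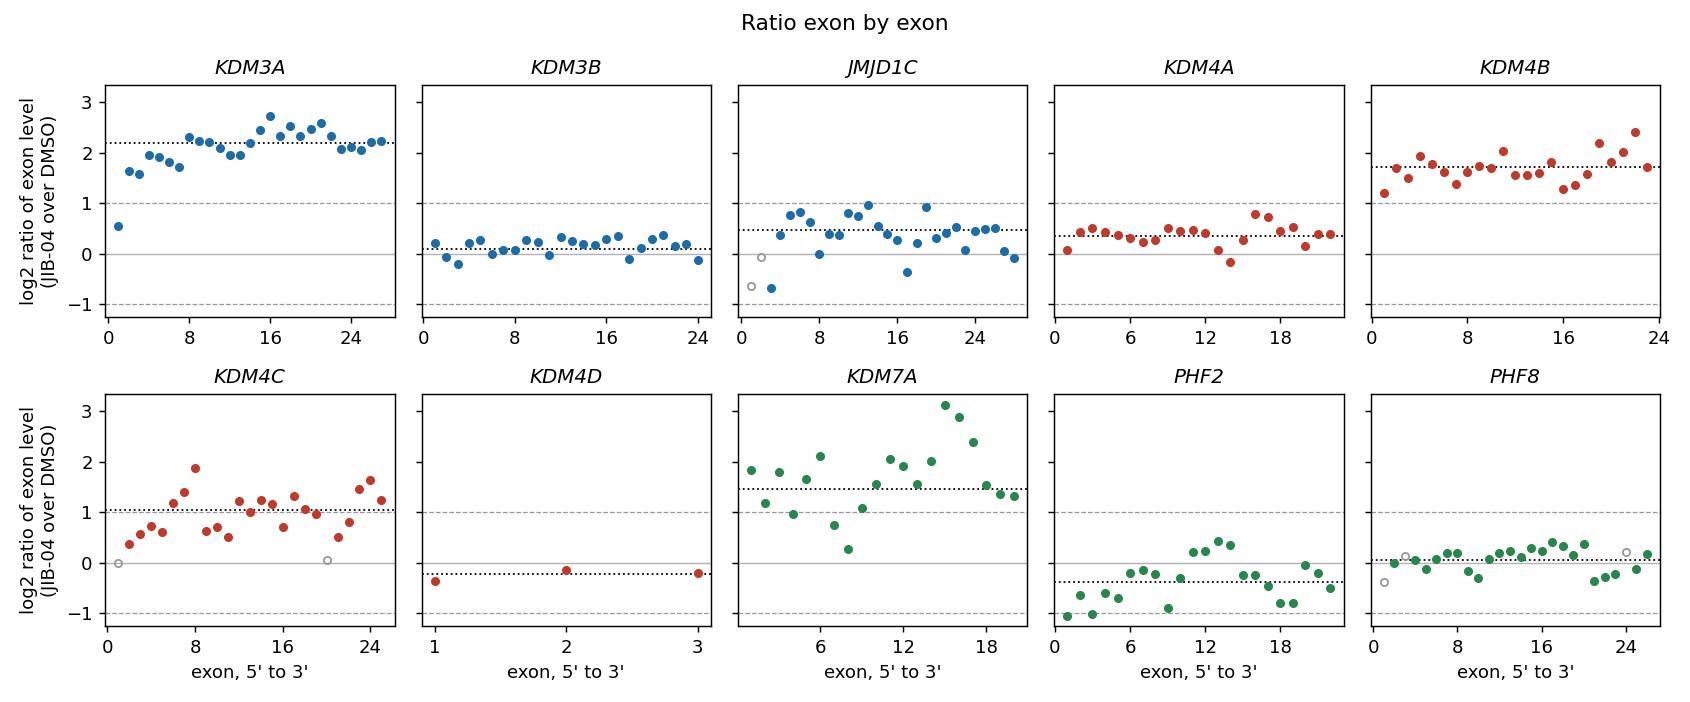
Log2 ratio of the exon level, JIB-04 over DMSO, against exon number from 5' to 3' for each member. Filled points are exons with a level of at least 1 in either library, open points weaker ones, dotted lines the ratio of the whole gene and dashed lines 2-fold; exons of KDM4B lie between 1.19 and 2.41, and those of PHF2 between -1.05 and 0.42.

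The 10 genes have 27 annotated RefSeq transcripts in the files, and 6 genes have 1 transcript each, so that transcripts can be compared in KDM3A, JMJD1C, KDM4C and PHF8 only. StringTie divides the reads of shared exons among transcripts, and the bases that tell a transcript from the others of its gene with over 1% of the TPM were therefore measured beside each estimate. KDM3A was carried by NM_018433, which held 98.7% of its TPM in the control and 96.1% under JIB-04. Its estimate was 33.8 and 154 TPM, for a log2 ratio of 2.15 (counting interval 2.08 to 2.22), whereas the 297 bases that it alone holds, its first exon, had levels of 2.48 and 4.06 from 9 and 12 fragments, for a log2 ratio of 0.54 (counting interval -0.51 to 1.52). For NM_001146688, which starts downstream, 0.44 and 6.17 TPM were estimated, but the 28 bases that it alone holds had 0 and 1 fragment.

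In JMJD1C, transcripts from the most downstream of 3 starts (65028983 on chromosome 10) held 25.1% of the gene's TPM in the control and 52.8% under JIB-04. Their estimated level was 4.34 and 12.8 TPM, for a log2 ratio of 1.37 with the lower end of its interval at 1.23, and that of the 4 transcripts from both upstream starts 12.9 and 11.4 TPM, for a log2 ratio of -0.17 (counting interval -0.28 to -0.05). The bases that tell these groups apart were few and thinly covered. Over 565 bases found only downstream the level was 3.41 and 4.69, from 23 and 26 fragments, for a log2 ratio of 0.37 (counting interval -0.33 to 1.04). Over 1010 bases found only upstream it was 1.81 and 1.08, from 22 and 11 fragments, for a log2 ratio of -0.44 (counting interval -1.02 to 0.23). The shared 8114 bases, with 1725 and 2011 fragments, had a log2 ratio of 0.48 (counting interval 0.39 to 0.56). The intervals of both distinguishing sets span 0 and overlap each other, so at this depth the bases of their own could not show whether the use of the starts differed.

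For the short KDM4C transcript NM_001146695 the estimate had a higher ratio than its own bases. Its estimate was 0.11 TPM in the control and 2.25 TPM under JIB-04, or 1.63% and 14.9% of the gene, for a log2 ratio of 1.55 (counting interval 1.31 to 1.69). Its own last exon of 831 bases had levels of 0.51 and 0.56, from 5 fragments in each library, for a log2 ratio of 0.05 (counting interval -0.55 to 0.73). The long transcript NM_015061 was estimated at 6.33 and 12.4 TPM, and over the 1666 bases that set it apart the level was 6.06 and 14.9, for a log2 ratio of 1.17 (counting interval 0.89 to 1.46). In PHF8, NM_015107 was estimated at 16.9 and 20.6 TPM and NM_001184897 at 7.67 and 4.96 TPM. A stretch of 1102 bases in the last exon sets NM_015107 apart, and its level was 19.3 and 23.0, for a log2 ratio of 0.24 (counting interval -0.01 to 0.49). No base sets NM_001184897 apart, so that its lower estimate has no bases of its own behind it.

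**Figure D4:**
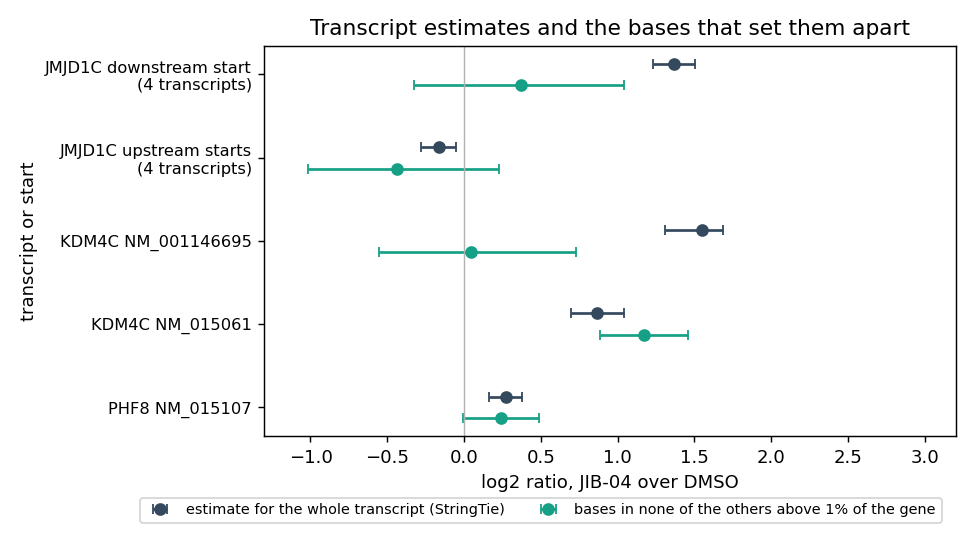
Log2 ratio, JIB-04 over DMSO, of transcript estimates (dark blue) and of the bases that set the same transcripts apart (green), with 95% counting intervals. KDM3A NM_018433 is not drawn, and its estimate is 2.15 while its own bases give 0.54. For the downstream start of JMJD1C the estimate is 1.37 and its own bases give 0.37; for KDM4C NM_001146695 the values are 1.55 and 0.05, whereas those of NM_015061 and of PHF8 NM_015107 overlap.

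Promoter sequences of the members were read from RefSeq windows on GRCh38.p14, taken as the 250 bases before each annotated start, and 10 of 10 members had at least 1 window. They are shown because the members called higher include KDM3A and KDM4B, known HIF-1 target genes. A part of HIF-1 in these data was not tested. Capitals mark ACGTG and GCGTG on either strand, the cores of hypoxia response elements, and CACGTG, which is also the E-box of MYC and of clock factors, holds ACGTG on both strands. The first 4 sequences are those of the called members, from 5' to 3' on the strand of the gene. The others are windows of members not called, chosen without a set rule, and hold no core. Windows of KDM4A (GCGTG) and of an upstream start of JMJD1C (CACGTG), also not called, hold a core but are not printed. The printed set therefore does not show how cores and calls go together.
KDM3A (chr2:86441121-86441370, plus strand): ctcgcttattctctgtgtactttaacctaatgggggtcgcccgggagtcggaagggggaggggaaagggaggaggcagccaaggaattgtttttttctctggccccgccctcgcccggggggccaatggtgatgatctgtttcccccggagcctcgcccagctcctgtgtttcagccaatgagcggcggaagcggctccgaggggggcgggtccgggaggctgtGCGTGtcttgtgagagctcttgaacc
KDM4B (chr19:4968863-4969112, plus strand): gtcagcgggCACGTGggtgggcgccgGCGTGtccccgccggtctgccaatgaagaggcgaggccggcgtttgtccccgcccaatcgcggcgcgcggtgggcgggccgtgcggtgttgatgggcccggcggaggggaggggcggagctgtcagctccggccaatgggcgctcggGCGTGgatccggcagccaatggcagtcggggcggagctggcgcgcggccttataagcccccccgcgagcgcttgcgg
KDM4C (chr9:6757723-6757972, plus strand): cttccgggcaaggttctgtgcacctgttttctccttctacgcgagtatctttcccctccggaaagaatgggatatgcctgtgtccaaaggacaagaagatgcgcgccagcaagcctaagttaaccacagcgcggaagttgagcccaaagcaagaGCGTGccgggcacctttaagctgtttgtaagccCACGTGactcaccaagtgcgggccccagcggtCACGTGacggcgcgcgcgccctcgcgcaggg
KDM7A (chr7:140176984-140177233, minus strand): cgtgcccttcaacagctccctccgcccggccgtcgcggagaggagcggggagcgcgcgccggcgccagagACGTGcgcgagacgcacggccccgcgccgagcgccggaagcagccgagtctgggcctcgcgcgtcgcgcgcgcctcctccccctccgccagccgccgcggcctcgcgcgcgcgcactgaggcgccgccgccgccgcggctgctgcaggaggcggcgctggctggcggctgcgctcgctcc
KDM3B (chr5:138352435-138352684, plus strand): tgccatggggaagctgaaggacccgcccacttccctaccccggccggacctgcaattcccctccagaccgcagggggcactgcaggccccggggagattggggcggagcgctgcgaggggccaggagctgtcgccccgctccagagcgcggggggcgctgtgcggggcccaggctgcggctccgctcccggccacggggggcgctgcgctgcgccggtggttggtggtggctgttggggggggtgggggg
JMJD1C, downstream start (chr10:63269244-63269493, minus strand): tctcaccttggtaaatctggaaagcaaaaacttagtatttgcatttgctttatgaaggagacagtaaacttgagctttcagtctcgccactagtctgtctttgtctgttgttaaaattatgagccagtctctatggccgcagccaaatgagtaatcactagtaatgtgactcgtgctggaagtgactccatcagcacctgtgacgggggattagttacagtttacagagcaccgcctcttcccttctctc

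Each of the 4 called members had a core in at least 1 window, and 6 of all 10 members did. The same share per gene was not computed over all described genes, and the shares below are per window. KDM4B had 3 marked stretches, namely 1 CACGTG and 2 GCGTG, and KDM4C also 3, namely 2 CACGTG and 1 GCGTG. KDM7A had 1 ACGTG, and KDM3A 1 GCGTG at 26 bases before the RefSeq start of its window. The other KDM3A window, whose start lies further downstream, holds the same GCGTG. On hg19 the KDM3A starts lie at 86668271 and 86668584, but the RefSeq starts of its windows are 86441371 and 86441461, a different spacing. Window starts were matched to the hg19 starts by their spacing for JMJD1C only, so the marked letters may not lie before the starts of the measured transcripts. Of the 6 members that were not called, KDM4A (GCGTG) and 1 of 3 windows of JMJD1C (CACGTG) had one, while the windows of KDM3B, KDM4D, PHF2 and PHF8 had none. Of the 15 windows of the members, 7 (46.7%) held a core of either kind and 3 (20%) CACGTG. The 7 count the GCGTG of KDM3A in both of its windows. Among the 15910 windows of described genes, 54.9% held a core of either kind and 8.25% CACGTG, and among all 35116 windows 43.2% and 6.34%, so a core was common in promoters. No test compared these shares. The 3 windows of JMJD1C were matched to the starts in the files by their spacing, 252852 bases in the files and 252647 in the RefSeq table between the outermost starts, and the window of the downstream start holds no core and is poor in G and C (44.0%, against 72.0% in both others). A match describes these letters and is no evidence of binding.

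The enzymes that place methyl groups on H3K9 and the proteins that read them had no gene called higher. Of 9 H3K9 methyltransferase genes 7 were described, none was called in either direction, and their median log2 ratio was -0.41. PRDM2 (0.05) and SETDB1 (-0.03), the enzyme that silences retroelements, were highest among those with a mean of at least 5 TPM, and EHMT1 (-0.42), which encodes GLP, and SUV39H1 (-0.87), which trimethylates H3K9 in heterochromatin, were lowest among them. The weaker SETDB2, named after its value was seen, was at 4.28 and 1.93 TPM (log2 ratio -0.85). SUV39H1 was at 39.1 TPM in the control and 20.9 TPM under JIB-04 (counting interval of its log2 ratio -1.01 to -0.73). Of 12 genes of readers and corepressors none was called higher and 3 were called lower, with a median of -0.38. They were ATF7IP (-1.31), a partner of SETDB1, CBX1 (-1.27), which encodes HP1 beta, and, named after its value was seen, MPHOSPH8 (-1.05), a subunit of the HUSH complex. CDYL (0.45) and CBX5 (0.14), the gene of HP1 alpha, were highest in this list. No test of the difference between these lists and the members was made.

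Among other lysine demethylase and JmjC genes several were called higher as well. Of 15 described genes of 16 listed, 5 were called higher and none lower, with a median of 0.54. KDM2B, a demethylase of H3K36, was at 17.3 TPM in the control and 55.9 TPM under JIB-04 (log2 ratio 1.64, interval 1.54 to 1.74), and JMJD6 at 43.3 and 132 TPM (log2 ratio 1.58). The others called higher, named after their values were seen, were KDM2A (1.25), HR (1.19) and KDM6B (1.11), a demethylase of H3K27. HR, at 0.65 and 2.77 TPM, was described through the JIB-04 library alone. KDM1B (-0.52), a demethylase that uses FAD and not iron, and RIOX1 (-0.44) had the lowest ratios among those with a mean of at least 5 TPM. Of the partners, ZNF711, which binds PHF8, had a log2 ratio of -0.15, and both partner genes stayed within 2-fold with a median of -0.16. The list of hypoxia-induced genes, like the others, was written with earlier results of these data known, so its count and range are no test. Of its 12 genes all were called higher, with a median of 2.63, from NDRG1 (4.34) and CA9 (3.61) down to P4HA1 (1.71) and LDHA (1.52). KDM3A (2.19) and KDM4B (1.73) lay within that range, and KDM4C and KDM7A below its lower end. The hypoxia-induced genes were higher in the same library as the 4 called members, while the other 6 members stayed within 2-fold, and their part in the result was not tested.

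**Figure D5:**
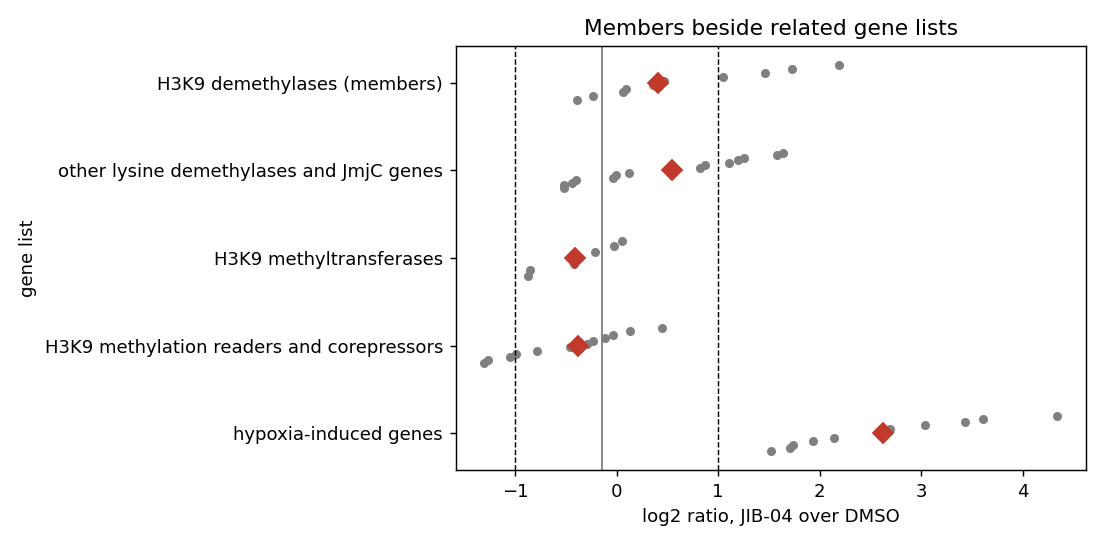
Log2 ratio (JIB-04 over DMSO, x axis) of each described gene (gray), with 1 row per gene list (y axis), with the median as a red diamond. The gray line is the median of all described genes and dashed lines mark 2-fold; medians are 0.41 for the members, 0.54, -0.41 and -0.38 for the next 3 lists and 2.63 for hypoxia-induced genes.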

How the data were processed

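Stranded mRNA of 2 libraries was sequenced. Per the submitters' processing notes, StringTie 1.3.3b and HISAT2 2.0.5 were among the tools, along with Bowtie2 2.2.6, Trimmomatic 0.32 and FastQC 0.11.5, and the build was hg19 (GRCh37). Per the file headers, StringTie quantified annotated RefSeq transcripts with a strand setting. The authors deposited coverage, FPKM and TPM for each transcript and coverage for each exon, without read counts.

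TPM was summed per gene, and symbols were taken from the RefSeq table of GRCh38.p14 (27559 of 27685 IDs matched). Ratios used a pseudocount of 1 TPM. To estimate fragments, the product of coverage and length was divided by 202 bases (2 mates of 101 bases). This value was checked on transcripts with under 1000 aligned bases from genes with a single transcript. Among these it was the value seen most often in both libraries, and 30.3% (DMSO) and 28.9% (JIB-04) lay within 2 bases of a multiple. Intervals of ratios are exact conditional binomial intervals and those of levels exact Poisson intervals, which cover counting error only. No member shares exonic bases with another gene on its strand. The members and lists, written from general knowledge, were chosen with earlier results of these data known. Besides the members, the 2 highest and 2 lowest genes of each related list with a mean of at least 5 TPM were named, and transcripts with at least 10% of a gene. No likeness of pattern was computed, since 2 libraries give 1 ratio a gene. The ratios and their intervals were run on simulated data drawn with Poisson counting error only. That is the error the intervals assume, so the run covers neither variation between libraries nor the division of reads among transcripts. The alternatives were other pseudocounts, filters, units, scalings, folds and the most abundant transcript. Python 3.11.15, numpy 2.4.6, pandas 2.3.3, SciPy 1.17.1 and matplotlib 3.10.9 were used.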

Additional observations from a re-analysis of the deposited data

How the results depend on the processing

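The count of 4 members at least 2-fold higher was 2 with a pseudocount of 5 TPM and 2 at 3-fold (KDM3A and KDM4B in both). It was 3 with FPKM and 3 with the most abundant transcript alone, where KDM4C fell short (0.91 and 0.87). Under the other alternatives it stayed at 4. No alternative gave a member at least 2-fold lower, and the members' median log2 ratio lay between 0.31 and 0.57. KDM3A (2.07 to 2.34) and KDM4B (1.51 to 1.87) stayed past 2-fold in each of 9 alternatives, whereas KDM4C (0.77 to 1.20) and KDM7A (0.89 to 1.72) did not. With the most abundant transcript alone, the log2 ratio of JMJD1C was -0.20. The median log2 ratio of 9007 well expressed genes was -0.15, and with that median set to 0, 64.4% of the genes called in all were higher, against 46.5%. Over all genes, the calls numbered 439 higher and 409 lower with a pseudocount of 5 TPM, against 865 and 994. No paired analysis was possible because each condition has 1 library. Depth limits KDM4D and the bases that set transcripts apart.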
